A study of Mus musculus with 6 samples.

Results

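Cholesterol synthesis, sterol-sensing and fatty acid synthesis genes were followed in RNA-seq of MEFs, which are fibroblasts cultured from mouse embryos. The set is a list of 42 gene symbols: 18 enzymes of sterol synthesis, 5 genes of the SREBP factors and their regulators, 4 genes of sterol transport and storage, 6 genes of the LXR receptors and their targets, and 9 enzymes of fatty acid synthesis. Each of the 42 symbols matched 1 row among the 17092 genes of the deposited table. All 42 passed the filter on low counts, which kept 13075 genes. The list was proposed with results of the same genotype comparison in view, so the calls on its members are a description and not independent evidence.

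The study compared MEFs of wild-type (WT) mice with MEFs of *Aff3ir-ORF2-/-* mice, here also called KO, with 3 libraries of each genotype. *Aff3ir* is a gene nested within *Aff3*, and the KO line is a global knockout made by injecting Cas9 mRNA and guide RNAs into fertilized eggs, so every cell type of the embryo carries the deletion. The sequencing methods name no flow exposure or other treatment for either genotype. Embryo age, sex and the number of embryos behind a library are not given in the sources used here. Nothing in the labels says that libraries of 1 genotype came from separate cultures or animals. The p-values therefore set a difference only against variation between these libraries, which may be technical. *Aff3ir* itself was not analysed here.

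Cells make cholesterol from acetyl-CoA through mevalonate, isoprenoids, squalene and lanosterol. When membrane sterol falls, Scap carries the SREBP factors from the endoplasmic reticulum to the Golgi, where they are cut and released to switch on genes of sterol and fatty acid synthesis, while the Insig proteins hold Scap back when sterol is plentiful. The LXR nuclear receptors respond to oxysterols in the opposite situation and raise genes of cholesterol export, a pathway best known from macrophages that take up cell debris and lipoproteins.

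Total counts ran from 17435133 to 17726034 in WT and from 18209421 to 18252330 in KO libraries. KO libraries differed more among themselves than WT libraries did: a chi-square per degree of freedom, which counting noise alone would hold near 1, ranged over 1.38 to 1.71 within WT, 5.56 to 18.9 within KO and 51.4 to 67.6 between genotypes. Levels are given below as CPM, the counts scaled to a common library total after TMM normalization. Log2 fold changes are KO minus WT, each with its standard error (SE) and the adjusted p of edgeR's quasi-likelihood test over all 13075 genes. A gene past both thresholds had an adjusted p under 0.05 and a change of at least 1.5-fold. In bulk RNA, fewer cells of a type and less RNA per cell cannot be told apart.

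The fibroblast label was checked against marker genes. All 15 fibroblast markers summed to 33230 to 33309 CPM in WT libraries and to 29528, 34926 and 27537 CPM in KO replicates 1, 2 and 3. Within that sum, 4 markers were higher and 5 lower at an adjusted p under 0.05, which is 60% against 56.8% of all genes tested. Past both thresholds *Lum* (2.17) and *Pdgfrb* (0.59) were higher and *Postn* (-1.04) was lower on the log2 scale, which is 20% against 21.4%. A list of 25 macrophage markers summed to 25.6 to 29.2 CPM in WT and to 1491, 2063 and 2550 CPM in KO replicates 1, 2 and 3. All 23 macrophage markers that were tested were higher in KO past both thresholds, and *C1qa*, *C1qb*, *Fcgr1*, *Aif1* and *Ly86* were at 0 counts in every WT library. Markers under 10 counts in WT, such as *C1qa*, *Tyrobp* and *Trem2*, passed the filter on low counts only through KO and so could be called only as higher. The most counted were *Lyz2* with 162, 199 and 182 counts in WT and 14471, 20237 and 25195 in KO, then *Mpeg1* and *Ctss*. Among markers of fat, endothelial, epithelial and liver cells, *Adipoq* had 0 to 2 counts, *Pecam1* 2 to 5, *Epcam* 0 to 4 and *Alb* 0 to 3. Other genes of these lists were counted more, and *Cebpa*, *Fabp4* and *Kdr* were higher in KO past both thresholds, with log2 fold changes of 1.55, 1.67 and 1.01. *Cebpa* had 76 to 84 counts in WT and 227 to 259 in KO, *Fabp4* 33 to 47 and 96 to 173, and *Kdr* 81 to 89 and 118 to 229. The endothelial gene *Cdh5* was lower past both thresholds, with a log2 fold change of -0.90 (edgeR's adjusted p = 0.0294), and *Tek*, *Egfl7* and the fat cell regulator *Pparg* had log2 fold changes of -1.28, -0.39 and -0.58 that did not pass.

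The 42 genes together took 5586 to 5646 CPM in WT and 5257 to 5358 CPM in KO libraries, so that the summed level in KO was 0.945 times that in WT. Past both thresholds, 3 members were higher in KO, *Nr1h3*, *Abca1* and *Mylip*, and 0 were lower. That is 7.14% of the members, against 21.4% of all genes tested (14.2% higher and 7.27% lower). The count of lower members was also 0 with DESeq2, with limma voom and at an unadjusted p under 0.05. Smaller shifts were common. At an adjusted p under 0.05 and any fold, 10 members were higher and 14 lower. That is 57.1% of the members against 56.8% of all genes tested (29.3% higher and 27.5% lower). Without WT replicate 2, 6 members were higher and 13 lower. In 10 members every KO library lay above every WT library, in 17 every KO library lay below, and in 15 the genotypes overlapped. Of all genes tested, 66% had genotypes that did not overlap (33.3% with KO higher and 32.7% with KO lower). The median log2 fold change was -0.08 over the members and 0.01 over all genes tested.

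**Figure D1:**
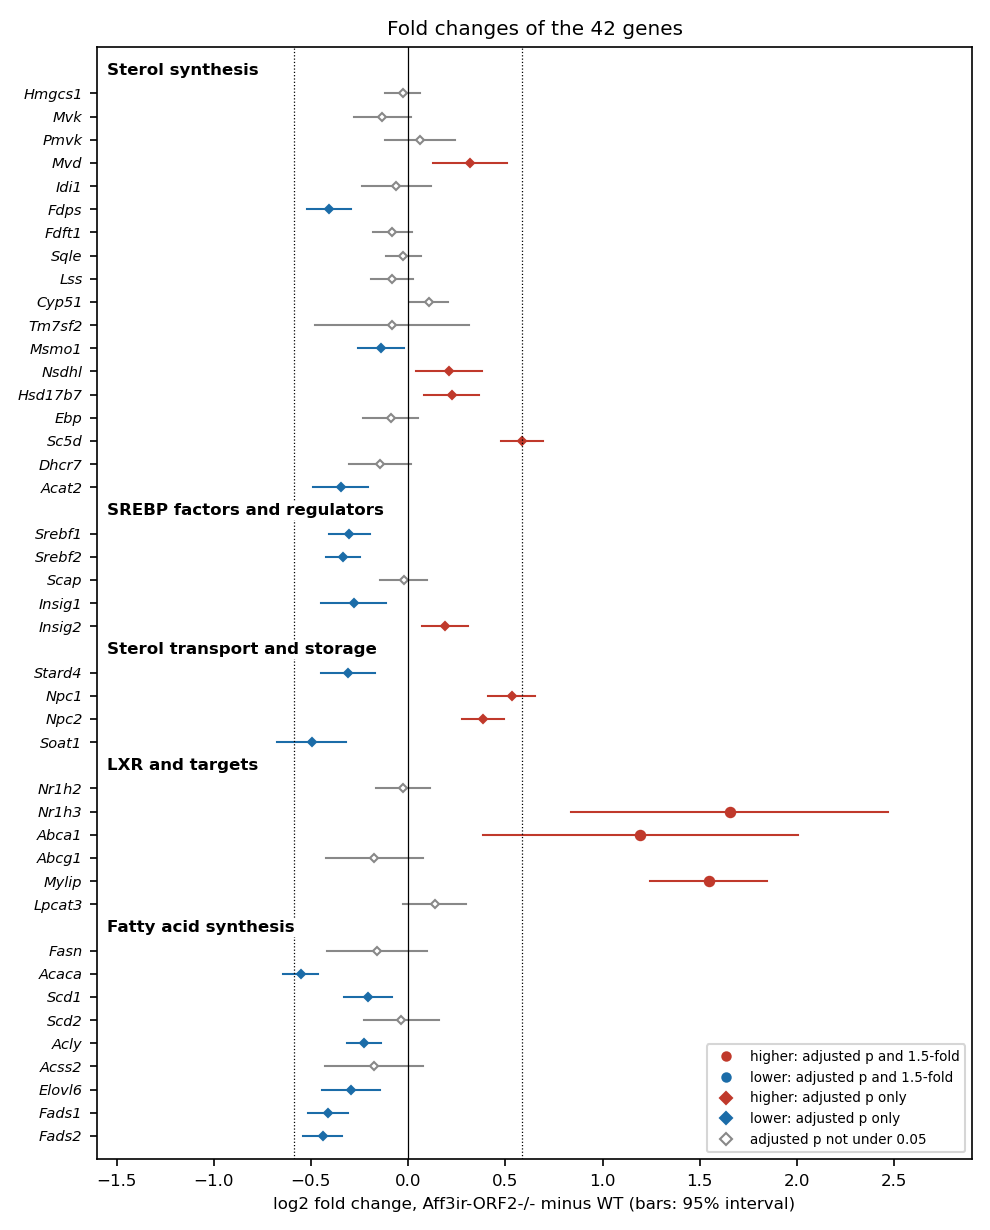
Log2 fold change (KO minus WT) of each of the 42 genes on the horizontal axis, grouped by role, with 95% intervals as bars and dotted lines at a 1.5-fold change. The genes past both thresholds, *Nr1h3* (1.65), *Mylip* (1.55) and *Abca1* (1.19), belong to the LXR group, while all 9 fatty acid enzymes lie left of 0.

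The promoters of the sterol-responsive genes are shown because the factors studied here bind known short sequences. RefSeq promoter windows of GRCm38.p6 (250 bases before to 50 after a start site) were matched for 33 of the 42 members, in 42 windows. Both strands of each window were searched for a sterol regulatory element, TCACNCCA, and for the direct repeat that LXR binds, here 2 copies of GGTNA with 5 bases between them, where N is any base. The repeat was found in *Abca1*, *Fasn* and *Srebf1*, which is 7.14% of member windows against 0.718% of all 32851 windows. The first 2 share all 15 letters of the match. Below, the 250 bases before each start site run 5′ to 3′ on the gene's strand, and capitals mark the match.
Abca1, chr4:53159896-53160145, minus strand: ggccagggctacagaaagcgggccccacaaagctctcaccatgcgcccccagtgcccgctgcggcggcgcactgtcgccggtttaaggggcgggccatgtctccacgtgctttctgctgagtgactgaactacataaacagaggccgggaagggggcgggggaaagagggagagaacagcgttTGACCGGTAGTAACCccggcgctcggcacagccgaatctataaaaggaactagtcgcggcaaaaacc
Fasn, chr11:120824548-120824797, minus strand: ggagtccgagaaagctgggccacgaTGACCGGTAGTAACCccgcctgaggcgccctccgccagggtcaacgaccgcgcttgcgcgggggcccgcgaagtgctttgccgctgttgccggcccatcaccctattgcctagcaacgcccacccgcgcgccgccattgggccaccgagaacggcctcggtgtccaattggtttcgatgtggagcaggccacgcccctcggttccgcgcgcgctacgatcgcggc
Srebf1, chr11:60210472-60210721, minus strand: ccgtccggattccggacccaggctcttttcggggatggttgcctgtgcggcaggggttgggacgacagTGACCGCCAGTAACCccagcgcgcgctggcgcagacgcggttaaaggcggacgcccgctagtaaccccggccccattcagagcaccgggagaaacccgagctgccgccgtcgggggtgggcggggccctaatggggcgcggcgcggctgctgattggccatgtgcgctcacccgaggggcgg

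In these 3 promoters the match lies on the strand opposite the gene and begins at position -67 in *Abca1*, -225 in *Fasn* and -182 in *Srebf1*, with -1 the base before the start, so the capitals show its reverse complement. These genes moved differently, since *Abca1* rose, *Srebf1* fell and *Fasn* did not pass the test. The sterol regulatory element was found in *Hmgcs1*, *Srebf2* and *Msmo1*, which is 7.14% of member windows against 4.36% of all windows.
Hmgcs1, chr13:119690101-119690350, plus strand: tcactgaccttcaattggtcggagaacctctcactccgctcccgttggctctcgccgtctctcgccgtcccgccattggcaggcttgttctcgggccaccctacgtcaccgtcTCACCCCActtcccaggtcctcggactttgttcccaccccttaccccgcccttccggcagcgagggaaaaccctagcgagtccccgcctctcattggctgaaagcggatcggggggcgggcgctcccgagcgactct
Srebf2, chr15:82147019-82147268, plus strand: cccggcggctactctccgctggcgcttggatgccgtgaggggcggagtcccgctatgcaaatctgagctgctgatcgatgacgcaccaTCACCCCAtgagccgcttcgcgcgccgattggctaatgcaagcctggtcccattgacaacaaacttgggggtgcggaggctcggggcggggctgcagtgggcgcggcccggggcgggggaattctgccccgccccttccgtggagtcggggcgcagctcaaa
Msmo1, chr8:64733579-64733828, minus strand: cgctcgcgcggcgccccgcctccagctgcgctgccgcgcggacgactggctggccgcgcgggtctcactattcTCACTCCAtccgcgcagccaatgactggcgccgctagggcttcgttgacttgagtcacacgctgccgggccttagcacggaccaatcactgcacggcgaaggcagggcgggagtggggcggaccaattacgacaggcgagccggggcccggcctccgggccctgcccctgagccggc

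The element begins at position -137 in *Hmgcs1*, -162 in *Srebf2* and -177 in *Msmo1*, on the gene's own strand in all 3. The letters CCAAT, which the SREBP partner NF-Y binds, were in 25 of the 33 matched members (75.8%) against 41.1% of all 27025 genes with a window. The letters GGGCGG, bound by Sp1, were in 27 (81.8%) against 38.2%. These shares are per gene, while those of the repeat and the sterol element are per window. All members passed the filter on low counts, which kept 13075 genes, so these backgrounds hold many genes not tested here. The gaps were therefore not shown to be particular to these pathways. A match is a description of sequence and was not tested as a binding site.

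The LXR genes held the largest changes of the set. Of 6 genes, 3 were higher past both thresholds and 0 were lower, against 14.2% higher and 7.27% lower over all genes tested, and 1 of the 3, *Nr1h3*, passed the filter only through KO. Their summed level went from 115 ± 3.40 CPM in WT to 159 ± 27.0 CPM in KO (SD, n = 3). *Nr1h3* (gene ID 22259), which encodes LXRα, had 6, 6 and 4 counts in the WT libraries and 14, 22 and 18 counts in the KO libraries, each in order of replicate number. Every KO library lay above every WT library, at low counts throughout, and the filter that asked for 10 counts in each library left this gene out. It passed the main filter only through the KO libraries, so it could be called only as higher, and its p is given as a description. Its log2 fold change was 1.65 (SE 0.36, edgeR's adjusted p = 0.00353). *Nr1h2* (gene ID 22260), which encodes LXRβ, was at 38.7, 35.6 and 34.7 CPM in WT and 35.4, 34.8 and 36.7 CPM in KO. The ranges overlapped, with a log2 fold change of -0.03 (95% interval -0.17 to 0.11) and an adjusted p of 0.723 from edgeR. LXRβ transcripts therefore outnumbered those of LXRα in each library, per length as well, at 18.2 against 0.157 CPM per kb of transcript in WT and 17.8 against 0.500 in KO.

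*Abca1* (gene ID 11303), the transporter that loads cholesterol onto lipid-poor apolipoprotein, was at 23.4, 26.8 and 25.8 CPM in WT replicates 1, 2 and 3 and at 33.1, 65.8 and 75.0 CPM in KO replicates 1, 2 and 3. All KO libraries were higher than all WT libraries, but KO replicate 1 lay much nearer to WT than KO replicates 2 and 3 did. The log2 fold change was 1.19 (SE 0.32, edgeR's adjusted p = 0.0241). Without KO replicate 2 it was 1.09 with an adjusted p of 0.129, and without KO replicate 3 it was 0.96 with an adjusted p of 0.0572. Leaving out any 1 of the WT libraries, or testing with no filter on low counts, also moved the adjusted p past 0.05, to between 0.0534 and 0.0585.

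*Mylip* (gene ID 218203) encodes an LXR-induced ubiquitin ligase that sends lipoprotein receptors to breakdown. It had 76, 82 and 92 counts in WT and 219, 299 and 254 counts in KO, so the lowest KO library was well above the highest WT library. The log2 fold change was 1.55 (SE 0.13, edgeR's adjusted p = 1.46e-05) and stayed past both thresholds in every alternative tried. *Abcg1* (gene ID 11307), the exporter that passes cholesterol to HDL, did not move with them. It was at 9.22, 9.95 and 9.44 CPM in WT and 7.74, 9.61 and 8.01 CPM in KO, with overlapping ranges and a log2 fold change of -0.17 (95% interval -0.42 to 0.08, edgeR's adjusted p = 0.209). *Lpcat3* (gene ID 14792), which places polyunsaturated fatty acids into membrane phospholipids, was at 41.2, 38.6 and 35.5 CPM in WT and 39.3, 43.5 and 43.9 CPM in KO. The ranges again overlapped, and the log2 fold change was 0.14 (95% interval -0.02 to 0.30, edgeR's adjusted p = 0.132). LXR target genes thus did not all rise. The LXR repeat was also found in the promoters of *Srebf1* and *Fasn*, which are counted in other groups here. Neither rose, with log2 fold changes of -0.30 and -0.16.

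Markers of macrophages were higher in the same KO libraries as the 3 LXR genes that rose. Their summed level was 1491, 2063 and 2550 CPM in KO replicates 1, 2 and 3, and *Abca1* was at 33.1, 65.8 and 75.0 CPM in the same libraries. *Mylip* and *Nr1h3* were highest in KO replicate 2 instead. The part of macrophage RNA in these differences was not tested.

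**Figure D2:**
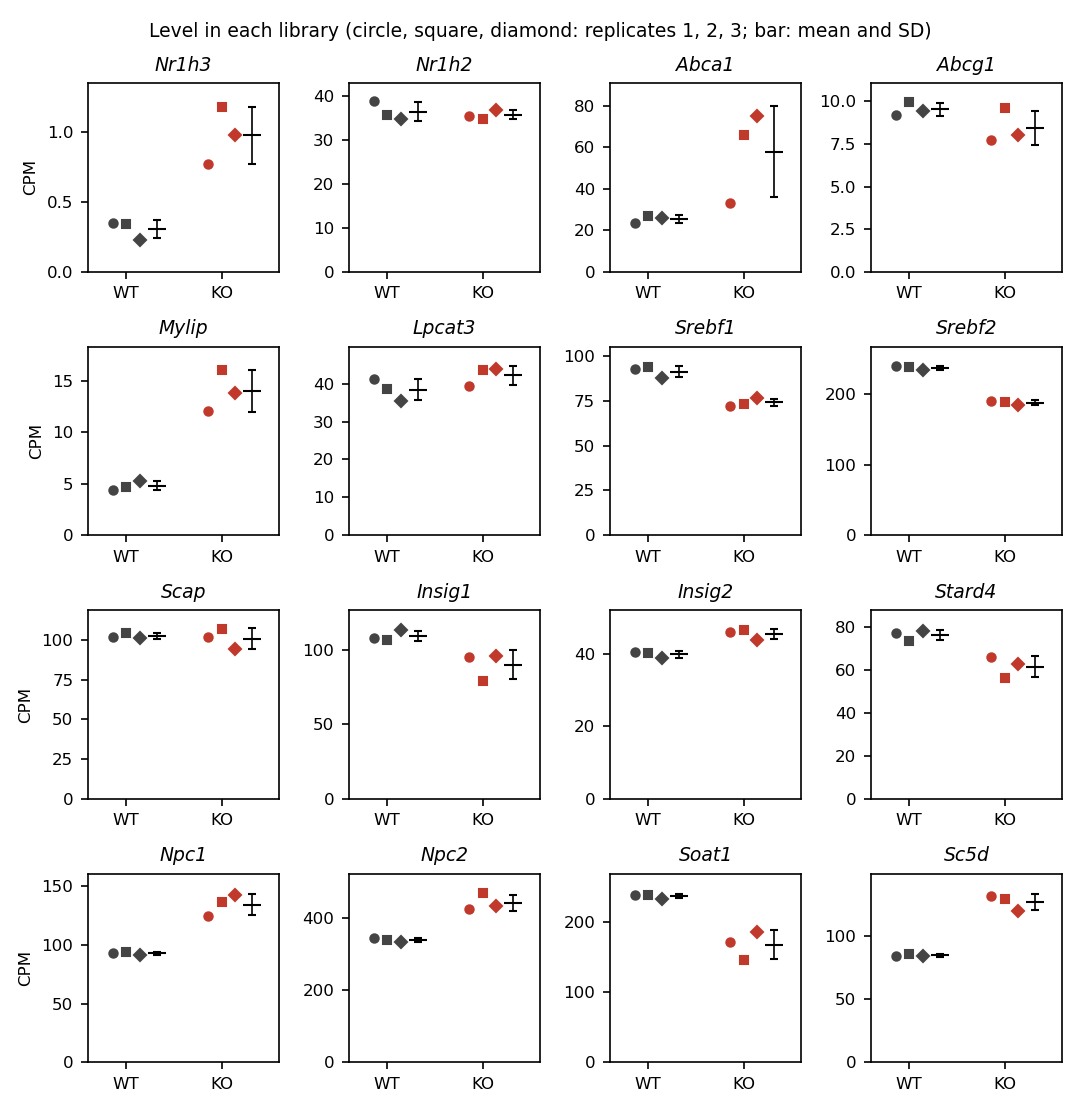
CPM in each library (vertical axes from 0) for 16 genes, WT in grey and KO in red, with circle, square and diamond for replicates 1, 2 and 3 and bars for the mean and SD of 3 libraries. *Abca1* is spread from 33.1 to 75.0 CPM among KO libraries, while *Srebf2* is at 185 to 191 CPM in KO and 234 to 239 CPM in WT.

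The SREBP factors fell, by less than 1.5-fold. Of the 5 genes in this group, 3 were lower and 1 higher at an adjusted p under 0.05, which is 80% against 56.8% of all genes tested, 1 did not pass, and their summed level in KO was 0.859 times that in WT. *Srebf2* (gene ID 20788), whose product SREBP-2 drives sterol synthesis, was at 239, 239 and 234 CPM in WT and at 191, 188 and 185 CPM in KO. Its genotypes were clearly apart, with a log2 fold change of -0.33 (SE 0.04, edgeR's adjusted p = 8.64e-05). *Srebf1* (gene ID 20787), whose products favour fatty acid synthesis, was at 92.7, 93.9 and 87.9 CPM in WT and 72.5, 73.5 and 76.6 CPM in KO. All KO libraries were again lower, by a log2 fold change of -0.30 (SE 0.05, edgeR's adjusted p = 4.97e-04). Macrophage markers were higher in these KO libraries, and their part in the lower SREBP levels was not tested.

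The Insig genes moved in opposite directions. *Insig1* (gene ID 231070), itself an SREBP target, was at 108, 107 and 114 CPM in WT and at 95.4, 79.0 and 96.2 CPM in KO. KO replicate 2 was the lowest, and the log2 fold change was -0.28 (SE 0.07, edgeR's adjusted p = 0.0102). *Insig2* (gene ID 72999), which does the same work in the endoplasmic reticulum but is not switched on by SREBPs, was at 40.5, 40.3 and 38.8 CPM in WT and at 46.0, 46.6 and 43.9 CPM in KO. It was higher in all KO libraries, with a log2 fold change of 0.19 (SE 0.05, edgeR's adjusted p = 0.0120), and this call was lost without WT replicate 3 (adjusted p = 0.0585). *Scap* (gene ID 235623), the sterol sensor that escorts SREBPs, was at 101, 105 and 101 CPM in WT and 102, 107 and 94.1 CPM in KO. Its log2 fold change was -0.02 (95% interval -0.14 to 0.09, edgeR's adjusted p = 0.722) and turned positive under some scalings. A gene on the other strand overlaps 18.6% of the *Scap* exon bases in GENCODE, and whether counting used strand is not given in the sources used here.

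Of the 4 transport and storage genes, *Npc1* and *Npc2* rose and *Soat1* and *Stard4* fell at an adjusted p under 0.05, while 56.8% of all genes tested passed at any fold. *Npc1* (gene ID 18145), the lysosomal membrane exporter, was at 93.1, 93.9 and 91.3 CPM in WT and at 124, 136 and 142 CPM in KO. *Npc2* (gene ID 67963), the soluble carrier that hands cholesterol to Npc1, was at 342, 339 and 332 CPM in WT and at 423, 467 and 432 CPM in KO. Both had every KO library above every WT library, with log2 fold changes of 0.53 (SE 0.05, edgeR's adjusted p = 3.46e-05) and 0.38 (SE 0.05, edgeR's adjusted p = 1.25e-04). The macrophage markers, at 1491, 2063 and 2550 CPM in the same KO libraries, were higher as well, and their part was not tested.

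*Soat1* (gene ID 20652), which esterifies cholesterol for storage in droplets, was at 239, 239 and 234 CPM in WT and at 173, 146 and 186 CPM in KO. *Stard4* (gene ID 170459), a cytosolic sterol carrier and SREBP-2 target, was at 76.9, 73.5 and 78.2 CPM in WT and at 65.7, 56.2 and 62.5 CPM in KO. KO replicate 2 was the lowest library for both. Their log2 fold changes were -0.50 (SE 0.08, edgeR's adjusted p = 7.25e-04) and -0.31 (SE 0.06, edgeR's adjusted p = 0.00213). All 4 transport and storage genes kept their direction and an adjusted p under 0.05 in every alternative tried.

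The sterol enzymes did not move as a block. Their summed level was 1721 ± 9.06 CPM in WT and 1695 ± 51.3 CPM in KO (SD, n = 3), and their median log2 fold change was -0.07. Of the 18, 4 were higher and 3 lower at an adjusted p under 0.05, which is 38.9% against 56.8% of all genes tested, and 11 did not pass. *Hmgcs1* (gene ID 208715), which makes HMG-CoA, was at 212, 220 and 218 CPM in WT and 215, 208 and 214 CPM in KO, and its log2 fold change of -0.03 had a 95% interval of -0.12 to 0.06. *Sqle* (gene ID 20775), which oxidises squalene, was at 131, 129 and 131 CPM in WT and 130, 128 and 125 CPM in KO, with a log2 fold change of -0.02 (95% interval -0.11 to 0.07). Both signs turned with upper quartile or total-count scaling.

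Those that passed lay at scattered steps. *Sc5d* (gene ID 235293), a late desaturase of the sterol ring, moved the most, at 84.2, 86.3 and 84.1 CPM in WT and 132, 130 and 120 CPM in KO. No KO library came near the WT range, and the log2 fold change was 0.58 (SE 0.05, edgeR's adjusted p = 1.16e-05), just under the 1.5-fold threshold and over it in 5 alternatives. *Mvd*, which decarboxylates mevalonate diphosphate, and the demethylation enzymes *Nsdhl* and *Hsd17b7* were also higher, with log2 fold changes of 0.32, 0.21 and 0.22. For *Nsdhl* the genotypes overlapped, with KO replicate 3 at 43.1 CPM and WT replicate 3 at 43.5 CPM. In the same order, edgeR's adjusted p values were 0.00984, 0.0378 and 0.0128. All 3 calls were lost without WT replicate 2 (*Nsdhl* also in 5 other alternatives). That library alone moved the count of higher sterol enzymes from 4 to 1.

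*Fdps* (gene ID 110196), which makes farnesyl diphosphate, was at 170, 171 and 162 CPM in WT and 128, 132 and 119 CPM in KO. *Acat2* (gene ID 110460), which joins acetyl-CoA units at the head of the pathway, was at 95.5, 94.7 and 90.2 CPM in WT and 79.9, 67.3 and 73.2 CPM in KO. Both were lower in all KO libraries, with log2 fold changes of -0.41 (SE 0.05, edgeR's adjusted p = 1.16e-04) and -0.35 (SE 0.06, edgeR's adjusted p = 0.00125). Their counts are uncertain, since 75.8% of the 100-base words of *Fdps* and 35.3% of those of *Acat2* also occur in other annotated genes. *Msmo1* (gene ID 66234), a sterol methyl oxidase, was at 210, 209 and 205 CPM in WT and at 201, 176 and 189 CPM in KO. It was only slightly lower in KO replicate 1, its log2 fold change was -0.14 (SE 0.05, edgeR's adjusted p = 0.0439), and the call was lost in 8 of 15 alternatives.

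*Cyp51* (gene ID 13121), the lanosterol demethylase, was at 220, 226 and 223 CPM in WT and 245, 247 and 229 CPM in KO. All KO libraries were higher, yet the log2 fold change of 0.11 (95% interval 0.01 to 0.21) had an adjusted p of 0.0641 from edgeR and passed in 4 of 15 alternatives (adjusted p down to 0.0207). The other sterol enzymes that did not pass were *Mvk*, *Pmvk*, *Idi1*, *Fdft1*, *Lss*, *Tm7sf2*, *Ebp* and *Dhcr7*, with log2 fold changes from -0.15 to 0.06. *Tm7sf2* was the least counted and least certain of them, with a 95% interval from -0.48 to 0.31. *Idi1* shares 20% of its 100-base words with other genes, and *Fdft1* overlaps *Ctsb* on the other strand over 20.9% of its exon bases.

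**Figure D3:**
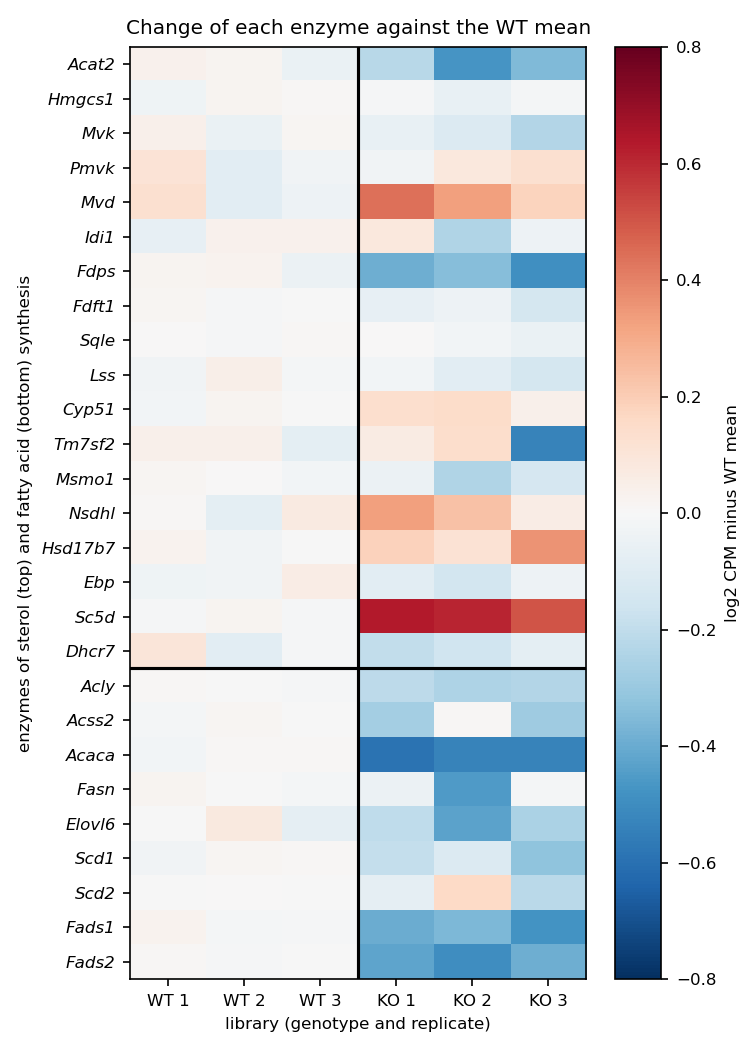
Log2 CPM minus the WT mean of the same gene (colour, red higher and blue lower) for 18 sterol enzymes above the line and 9 fatty acid enzymes below it, with the 6 libraries as columns. *Sc5d* is higher in all 3 KO libraries and *Acaca* lower in all 3. The sign differs between KO libraries for *Tm7sf2*, *Idi1*, *Scd2*, *Pmvk*, *Sqle* and *Acss2*.

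Among the fatty acid enzymes, all 9 had a negative log2 fold change, with a median of -0.23, and 6 were lower and 0 higher at an adjusted p under 0.05 (edgeR's quasi-likelihood test), against 27.5% lower and 29.3% higher over all genes tested. None reached 1.5-fold. Their summed level was 2464 ± 11.2 CPM in WT and 2159 ± 54.4 CPM in KO (SD, n = 3), a ratio of 0.876. Upper quartile scaling turned the sign of *Scd2*, one of the 3 that did not pass. Summed macrophage markers were higher in the same KO libraries, at 1491, 2063 and 2550 CPM, and their part in these differences was not tested.

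*Acly* (gene ID 104112), which makes cytosolic acetyl-CoA from citrate, was at 388, 385 and 382 CPM in WT and at 334, 325 and 328 CPM in KO. *Acaca* (gene ID 107476), the carboxylase that commits acetyl-CoA to fatty acids, was at 179, 184 and 184 CPM in WT and at 121, 126 and 126 CPM in KO. Both genes were tight within each genotype and lower in all KO libraries, with log2 fold changes of -0.23 (SE 0.04, edgeR's adjusted p = 8.57e-04) and -0.55 (SE 0.04, edgeR's adjusted p = 6.14e-06). For *Acaca*, 42.8% of its 100-base words also occur in the predicted gene *Gm5182*, so its count is uncertain.

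*Fasn* (gene ID 14104), the synthase itself, was at 514, 505 and 500 CPM in WT and at 489, 370 and 501 CPM in KO. It was lowest in KO replicate 2, and KO replicate 3 lay within the WT range. The log2 fold change of -0.16 (95% interval -0.42 to 0.10) had an adjusted p of 0.250 from edgeR. *Acss2*, which activates acetate, was the least counted of the fatty acid enzymes, with a log2 fold change of -0.18 (95% interval -0.43 to 0.08). KO replicate 2 was level with WT for this gene, at 9.18 CPM against 8.99 to 9.21 CPM, and the other KO libraries were lower, at 7.52 and 7.47 CPM.

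The desaturases and elongase that shape the new fatty acids were mostly lower. *Fads1* (gene ID 76267) and *Fads2* (gene ID 56473), the desaturases of polyunsaturated fatty acids, had log2 fold changes of -0.41 (SE 0.05, edgeR's adjusted p = 5.39e-05) and -0.44 (SE 0.04, edgeR's adjusted p = 3.51e-05). *Fads1* was at 206, 199 and 200 CPM in WT and 153, 157 and 145 CPM in KO, and *Fads2* at 117, 116 and 116 CPM against 86.8, 82.4 and 88.7 CPM. The elongase *Elovl6* was lower with a log2 fold change of -0.29 (SE 0.07, edgeR's adjusted p = 0.00438) and the stearoyl-CoA desaturase *Scd1* with -0.21 (SE 0.06, edgeR's adjusted p = 0.0106). *Scd2* (gene ID 20250), the sister desaturase, was at 808, 813 and 808 CPM in WT and 769, 906 and 696 CPM in KO. It was highest in KO replicate 2 and lowest in KO replicate 3, and its log2 fold change was -0.03 (95% interval -0.23 to 0.16). Without KO replicate 2 this was -0.15 with an adjusted p of 0.00362.

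Levels were compared between genes per kb of the longest coding transcript. Whether each gene was expressed as that transcript was not tested, so ranks between genes hold only for this choice of length. *Scd2* had the highest mean in both genotypes, at 148 ± 0.556 CPM per kb in WT and 145 ± 19.5 in KO (SD, n = 3). *Fdps*, *Npc2* and *Msmo1* followed in WT at 121, 102 and 102 CPM per kb, and *Npc2* and *Msmo1* were within their spread of each other there. The place of *Fdps* is uncertain as well, since most of its sequence words also occur in other annotated genes. In KO the second place went to *Npc2*, at 134 ± 6.93 CPM per kb, which is within the spread of *Scd2*. The exporters, *Mylip* and *Nr1h3* stood at the bottom: *Abca1* ranked 39 of 42 in WT and 37 in KO, *Mylip* 41 and 38, *Abcg1* 40 and 41, and *Nr1h3* 42 in both. Moves in the middle of the order included *Sc5d* from rank 27 to 17, *Npc1* from 26 to 19, *Acaca* from 23 to 33 and *Srebf1* from 21 to 29.

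**Figure D4:**
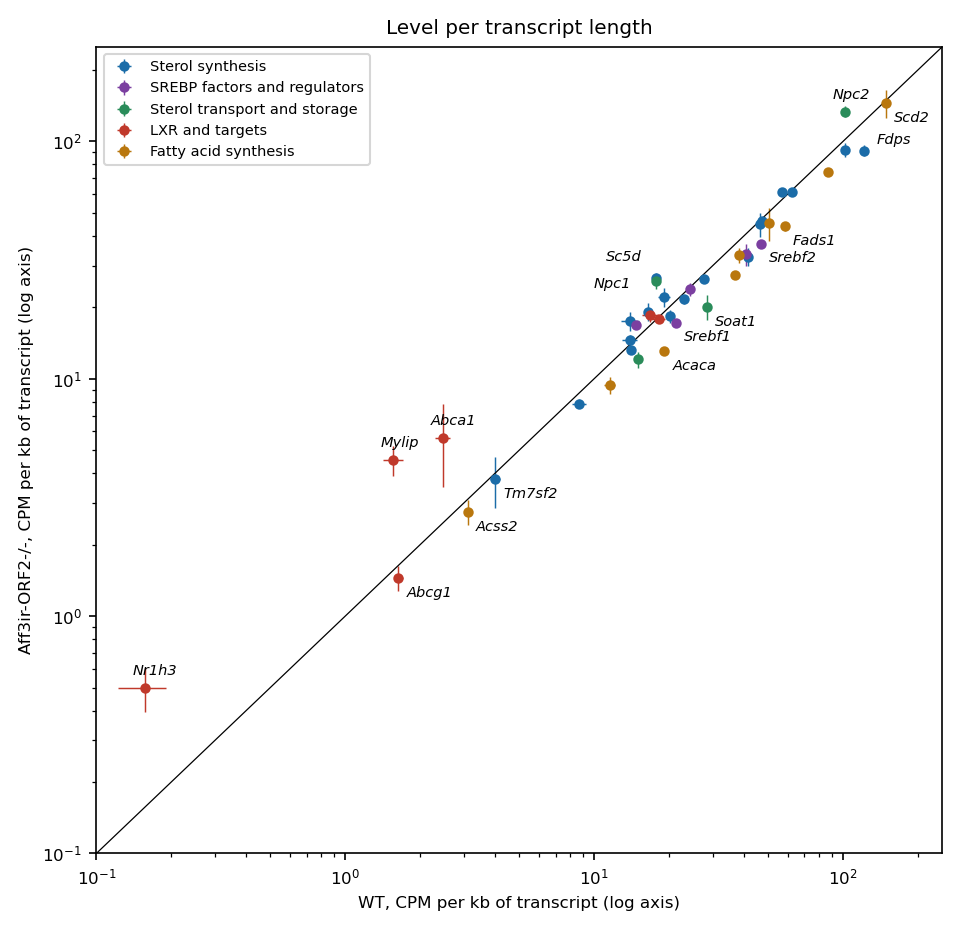
Mean CPM per kb of transcript in WT (horizontal) and KO (vertical), both on log axes, for the 42 genes coloured by group, with bars for the SD of 3 libraries and a line at equal levels. Most genes lie near the line between 8.69 and 148 CPM per kb in WT, with *Abca1*, *Mylip* and *Nr1h3* above it at 2.47 or less.

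A further 54 genes of the same pathways were read from the same fit, of which 51 passed the filter. Past both thresholds 7 were higher and 3 lower in KO, which is 19.6% against 21.4% of all genes tested, and their median log2 fold change was 0.03. At any fold, 15 were higher and 11 lower at an adjusted p under 0.05, which is 51.0% against 56.8% of all genes tested. The 8 SREBP processing and turnover genes had log2 fold changes from -0.10 to 0.11, with adjusted p values of 0.0860 or more from edgeR, though *Rnf145* passed in 3 alternatives, *Ufd1* in 2 and *Mbtps1* in 1. *Mbtps1* and *Mbtps2*, the proteases that cut SREBPs, had log2 fold changes of -0.02 and -0.10 with adjusted p values of 0.729 and 0.176 from edgeR, and the sign for *Mbtps1* turned with the scaling.

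*Pltp* (gene ID 18830), a phospholipid transfer protein and LXR target, showed the largest change of these genes. It had 61, 66 and 59 counts in WT and 262, 403 and 350 in KO, a log2 fold change of 2.37 (SE 0.16, edgeR's adjusted p = 5.39e-06). *Arl4c* (gene ID 320982), a small GTPase that LXR induces in macrophages, went the other way. It had 2059, 2129 and 2073 counts in WT and 1201, 1152 and 1333 in KO, a log2 fold change of -0.84 (SE 0.06, edgeR's adjusted p = 4.50e-06). The genotypes were fully apart for both. *Rxra*, which encodes the partner receptor of LXR, was higher with a log2 fold change of 0.56 (SE 0.05, edgeR's adjusted p = 1.19e-05). *Pltp* and *Rxra* were higher in the KO libraries with the macrophage markers, whose part was not tested.

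Of 15 further genes of sterol handling, 8 were higher and 3 lower at an adjusted p under 0.05, which is 73.3% against 56.8% of all genes tested (29.3% higher and 27.5% lower). *Lipa* (gene ID 16889), the lysosomal acid lipase, was at 58.6, 66.2 and 59.1 CPM in WT and 98.6, 117 and 124 CPM in KO. *Nceh1* (gene ID 320024), an ester hydrolase, was at 27.3, 28.4 and 29.1 CPM in WT and 43.6, 47.1 and 53.6 CPM in KO. Both had no overlap between genotypes, with log2 fold changes of 0.89 (SE 0.09, edgeR's adjusted p = 6.85e-05) and 0.77 (SE 0.08, edgeR's adjusted p = 3.74e-05). The sterol carriers *Gramd1b* and *Stard5* were higher by 1.19 and 0.61 on the log2 scale, with adjusted p values of 9.30e-05 and 0.00182 from edgeR. *Cyp39a1*, an oxysterol hydroxylase that is not one of these 15 genes, was just past the fold threshold at 0.59 (edgeR's adjusted p = 0.0257). Its libraries overlapped between genotypes, and the adjusted p was over 0.05 without WT replicate 1, WT replicate 3 or KO replicate 3 (up to 0.106). *Stard5* was under 1.5-fold without KO replicate 2, at 0.46. Summed macrophage markers were again higher in the same libraries, and their part in these changes was not tested.

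Of 11 tested genes among the other lipogenic genes, 3 were higher, *Me1* (0.31), *Slc25a1* (0.15) and *Lpin1*, and 4 were lower at an adjusted p under 0.05, which is 63.6% against 56.8% of all genes tested. *Slc25a1* overlapped between genotypes and lost its call in 7 of 15 alternatives (adjusted p up to 0.147). *Lpin1* (gene ID 14245), a phosphatidate phosphatase, had 138, 129 and 147 counts in WT and 286, 315 and 319 in KO, a log2 fold change of 1.07 (SE 0.09, edgeR's adjusted p = 1.31e-05). *Mid1ip1*, which promotes the activity of the acetyl-CoA carboxylase that *Acaca* encodes, was lower, with a log2 fold change of -0.61 (SE 0.05, edgeR's adjusted p = 7.60e-06). *Pdss1*, which builds the ubiquinone tail from isoprenoids and is not one of these 11 genes, was lower with -0.75 (SE 0.11, edgeR's adjusted p = 2.47e-04). All 3 had genotypes that did not overlap.

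**Figure D5:**
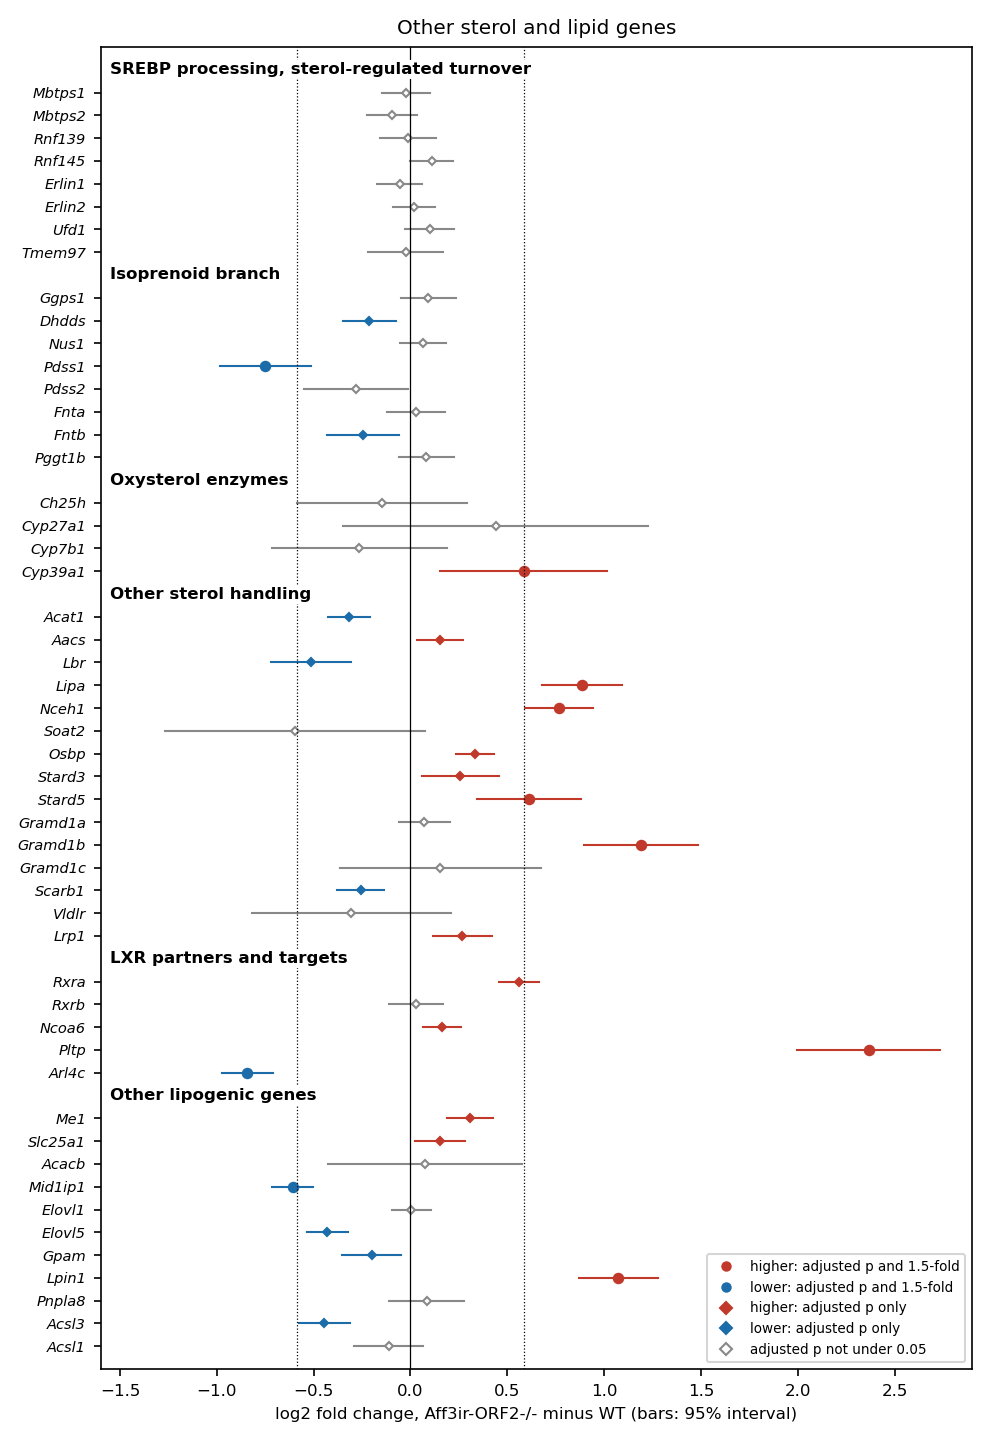
Log2 fold change (KO minus WT) of 51 further sterol and lipid genes on the horizontal axis, grouped by role, with 95% intervals as bars and dotted lines at a 1.5-fold change. *Pltp* (2.37) is farthest right and *Arl4c* (-0.84) farthest left, while the SREBP processing genes cluster around 0.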

How the data were processed

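RNA of WT and *Aff3ir-ORF2-/-* MEFs was sequenced in pairs of reads on a DNBSEQ instrument, 3 libraries per genotype. The authors filtered reads with SOAPnuke and deposited estimated counts per gene and library, without normalization. The submitters' processing notes list genome build mm8. The aligner, counter and strand setting are not given in the sources used here. Between 10.6% and 11.3% of values per library were not whole, and all were rounded.

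Counts were filtered with filterByExpr (minimum count 10, minimum total 15), scaled by TMM and tested without covariates by the quasi-likelihood method of edgeR 4.0.16 with robust estimation, in R 4.3.3, with Benjamini-Hochberg adjustment over 13075 genes. The functions were tested on simulated data. The members and all gene lists were chosen with earlier results of these data known. Values per library are given for the LXR and SREBP genes, for members past both thresholds and for the 8 other members with the most counts, by rule. *Sqle*, *Sc5d*, *Fdps*, *Acat2*, *Acaca*, *Npc1*, *Stard4*, *Acss2*, *Fads1* and *Fads2* were added after their values were seen, as were the named genes among the 51 further genes below both thresholds. Transcript lengths and shared 100-base words came from GENCODE M21 (GRCm38), promoters from RefSeq. Some genes of these pathways are not reported here. Alternatives were RLE, upper quartile and total-count scaling, other filters, DESeq2 1.42.0, limma 3.58.1 voom, a replicate block, each library left out in turn and, added after seeing the data, edgeR without robust estimation. Figures used Python 3.11.15 with matplotlib 3.10.9. The precision of a count is limited by its depth. SEs and intervals come from edgeR's fit, which moderated the variation between libraries across genes and shared it over both genotypes. They are therefore not the spread of a gene's own libraries, and KO libraries varied more than WT libraries.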

Additional observations from a re-analysis of the deposited data

How the results depend on the processing

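Among the recomputed fold changes of members, 584 kept their sign and their side of an adjusted p of 0.05, 23 lost the call, 8 gained it and 14 changed sign. Without a fold threshold, the members counted as higher and lower went from 3 and 0 to 10 and 14, and the further pathway genes from 7 and 3 to 15 and 11. With a 2-fold change the latter were 3 and 0. The count of higher members was 2 with no filter and without WT replicate 1, WT replicate 3 or KO replicate 2, where *Abca1* was lost. It stayed at 3 without WT replicate 2 or KO replicate 3, where *Abca1* was lost and *Sc5d* crossed 1.5-fold, as *Sc5d* did in 5 settings in all. *Abca1* had adjusted p values from 6.95e-06 to 0.129 over the alternatives. *Msmo1* lost its call in 8 settings, and *Fdft1*, *Abcg1*, *Acss2* and *Scd2* gained one without KO replicate 2. *Cyp51* gained one in 4 settings, and *Cyp39a1* was no longer past both thresholds in 6. *Stard5* fell under 1.5-fold without KO replicate 2, and *Mid1ip1* did so under upper quartile and total-count scaling. The further genes past both thresholds were 5 to 8 higher and 2 to 4 lower over the other settings. The cause was not tested.

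Every fold change that changed sign, on the log2 scale, was of a gene that had not passed the test. Under upper quartile and total-count scaling, which moved the median of all genes from 0.01 to 0.04 and 0.03, the values became 0.0097 and 0.0007 for *Hmgcs1*, 0.0136 and 0.0044 for *Sqle*, 0.0147 and 0.0052 for *Scap*, 0.0101 and 0.0012 for *Nr1h2*, 0.0148 and 0.0053 for *Mbtps1*, 0.0247 and 0.0156 for *Rnf139* and 0.0123 and 0.0039 for *Tmem97*. *Scd2* was at 0.0051 under upper quartile scaling alone. With no filter, *Elovl1* was at -0.0105. Leaving out 1 library at a time gave -0.1426 to 0.0197 for *Idi1*, -0.2147 to 0.1011 for *Tm7sf2*, -0.0705 to 0.0212 for *Scap*, -0.0622 to 0.0228 for *Nr1h2* and -0.1479 to 0.0468 for *Scd2*. Among the further genes it gave -0.0925 to 0.0074 for *Mbtps1*, -0.052 to 0.0435 for *Rnf139*, -0.0045 to 0.0439 for *Erlin2*, -0.0898 to 0.0552 for *Tmem97*, -0.0233 to 0.0776 for *Fnta*, -0.006 to 0.0459 for *Rxrb*, -0.0798 to 0.2445 for *Acacb*, -0.0205 to 0.0379 for *Elovl1* and -0.0087 to 0.1706 for *Pnpla8*.

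With the replicate number as a block, the members counted as higher and lower were 3 and 0, and the counts over all genes went from 1851 and 951 to 1854 and 954. Same-numbered libraries shared deviations at correlations of 0.0386, 0.0424 and 0.0145 across genes, too weak to treat the numbers as pairs, although each library correlated best with its own number. Depth limits *Nr1h3* the most, at 4 to 22 counts.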

Other observations

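Of the 54 further lipid genes, 3 were too low to test. *Mlxipl*, which encodes the carbohydrate-sensing factor ChREBP that drives lipogenesis in liver, was at 0 to 2 counts in every library of both genotypes. *Thrsp*, a lipogenic gene of liver and fat, was at 0 counts in 5 libraries and at 1 in KO replicate 3. *Abcg4*, a sterol exporter related to *Abcg1*, had 2, 4 and 2 counts in WT and 8, 3 and 9 in KO.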
